A study of Mus musculus with 6 samples.

Results

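Collagens are the main structural proteins of the extracellular matrix, and 39 of the 17030 genes in the table encode collagen alpha chains. They were chosen by symbol (Col, a type number, the letter a and a chain number), a rule that uses no measured value. Of these 39 genes, 17 reached at least 1 FPKM in at least 3 libraries and were tested, and 22 did not. FPKM is the number of sequenced fragments scaled by transcript length (per kilobase) and by the total of the library. It is therefore a level per length, and levels can be compared between genes only roughly.

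The samples came from SCC7, a squamous cell carcinoma line of the mouse. In 3 samples the cells had received radiotherapy, at the 9 Gy given in the treatment protocol (irradiated libraries 1 to 3). In 3 samples they were labelled with no treatment (controls 1 to 3). The time label is day 0 throughout, and how long after irradiation the cells were harvested is not stated. Whether the replicates were separate cultures is not stated either, so the p-values reflect only the spread of these samples, and part of it may be technical. In bulk RNA, fewer cells of a type and less RNA per cell cannot be told apart.

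Each collagen chain carries long runs of a short glycine-containing repeat, and chains of matching type wind into a triple helix in the endoplasmic reticulum. Fibrillar collagens (types I, II, III, V, XI, XXIV and XXVII) build the banded fibrils of connective tissue. Type IV forms the sheet-like network of basement membranes, type VI forms beaded filaments, and type VII forms the anchoring fibrils that fasten the basement membrane of skin and mucosa to the tissue below. In carcinomas most fibrillar collagen is made by stromal fibroblasts, and here the cells were a cultured line.

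Upstream sequences are shown for the 3 tested genes with the highest log2 fold changes among those with a RefSeq promoter window, since Col5a3 and Col7a1 are among the 3 genes called higher below. Col18a1, which was not called, lies between them in log2 fold change, and Col1a1, the remaining called gene, had no window. The sequences are from RefSeq, build GRCm38.p6, and run to the annotated edge of the gene. Capitals mark CCAAT or GGGCGG on either strand. The Col5a3 sequence is chr9:20815118-20815317 (minus strand), the Col7a1 sequence chr9:108953336-108953585 (plus strand) and the Col18a1 sequence chr10:77166531-77166780 (minus strand, the outermost of 2 windows of that gene).
Col5a3: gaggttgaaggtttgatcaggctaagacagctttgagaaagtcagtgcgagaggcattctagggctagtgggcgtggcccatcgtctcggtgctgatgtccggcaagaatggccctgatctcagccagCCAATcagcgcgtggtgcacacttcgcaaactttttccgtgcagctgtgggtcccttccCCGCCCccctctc
Col7a1: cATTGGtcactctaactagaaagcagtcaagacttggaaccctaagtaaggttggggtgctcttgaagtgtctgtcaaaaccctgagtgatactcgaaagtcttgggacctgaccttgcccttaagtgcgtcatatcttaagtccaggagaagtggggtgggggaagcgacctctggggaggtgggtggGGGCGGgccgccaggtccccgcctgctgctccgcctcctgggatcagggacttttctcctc
Col18a1: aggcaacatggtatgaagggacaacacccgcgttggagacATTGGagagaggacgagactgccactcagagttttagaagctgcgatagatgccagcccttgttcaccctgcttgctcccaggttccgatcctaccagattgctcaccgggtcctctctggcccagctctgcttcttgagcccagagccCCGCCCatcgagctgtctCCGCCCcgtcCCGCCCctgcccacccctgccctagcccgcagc

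Each of these 3 sequences holds both motifs. So do the windows of the tested genes Col1a2, Col4a2, Col4a5 and Col16a1, none of which was called below. Over the 250 bases before the start in all 32851 windows, CCAAT was present on either strand in 33.8%, GGGCGG in 32.7% and TATAAA in 12.4%. The 15 tested collagen genes with a window had 17 windows, of which 8 held CCAAT, 12 held GGGCGG and 1 (Col3a1) held TATAAA. A match describes the letters of the window and not a bound factor.

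The libraries set the limits of what follows. The FPKM sum was 652691 to 663489 in irradiated libraries and 693961 to 982553 in controls, and read numbers could not be recovered from the table. On the log2(FPKM + 1) scale, the tested collagen genes had a median SD of 0.115 in irradiated libraries and 0.218 in controls. For all genes tested it was 0.082 and 0.301. For all 11103 genes tested, control 3 lay nearer to the irradiated mean than to the mean of controls 1 and 2 in 69.4%, and this held for 8 of the 17 collagen genes. Control 3 was above both other controls for 9 of the 17 and below both for 7, against 52.8% and 35.9% of all genes tested. Of 7 epithelial markers, Krt8 and Krt18 were abundant, while Krt5, Krt14, Trp63, Epcam and Cdh1 reached at most 1.10 FPKM in any library. The summed level of these 7 was 484 to 496 FPKM in irradiated libraries and 700 to 1890 FPKM in controls, with Krt18 called lower in irradiated cells (log2 fold change -1.82, limma adjusted p = 0.0261). Markers of 7 fibroblast genes summed to 39.0 to 44.7 FPKM in irradiated libraries and 23.5 to 51.2 FPKM in controls. Pdgfra made up most of that sum, Lum and Thy1 reached at most 0.04 FPKM, and of the 3 tested Dcn was called, higher in irradiated cells. Endothelial markers (4 genes) summed to 0.25 to 0.51 FPKM in irradiated libraries and 0.36 to 0.63 FPKM in controls. Of the 5 leukocyte markers, 4 were in the table. They summed to 4.08 to 5.74 FPKM in irradiated libraries and 2.14 to 4.52 FPKM in controls, nearly all of it Cd68, with Ptprc at 0.03 FPKM or less. The part of these markers in the collagen differences was not tested.

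Irradiated cells had higher levels of 3 collagen transcripts, Col1a1, Col5a3 and Col7a1, each raised 2.30- to 2.75-fold in mean FPKM. None of the 17 tested was called lower by limma, where 4 had an unadjusted p below 0.05 in that direction and 7 in the other. The 3 calls are 17.6% of the 17, against 12.0% of all genes tested that were called in either direction with 9.24% called higher and 2.77% lower. An unadjusted p below 0.05 was reached by 11 of the 17, against 38.3% of all. The groups did not overlap for 11 of the 17 (7 with irradiated libraries higher, 4 lower), against 45.4% of all genes tested (31.8% higher, 13.7% lower). Calls among all genes split into 1026 higher and 308 lower, into 703 and 448 after trimmed-mean scaling and into 645 and 601 after quantile normalization. Those scalings split the collagen calls into 3 higher and 3 lower, and into 2 higher and 1 lower. The median log2 fold change of the 17 was 0.51, against 0.17 for all genes tested. Each log2 fold change is the irradiated mean of log2(FPKM + 1) less the control mean, a scale that understates changes at low levels. A gene is called where the limma p, adjusted over all genes tested, is below 0.05.

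**Figure D1:**
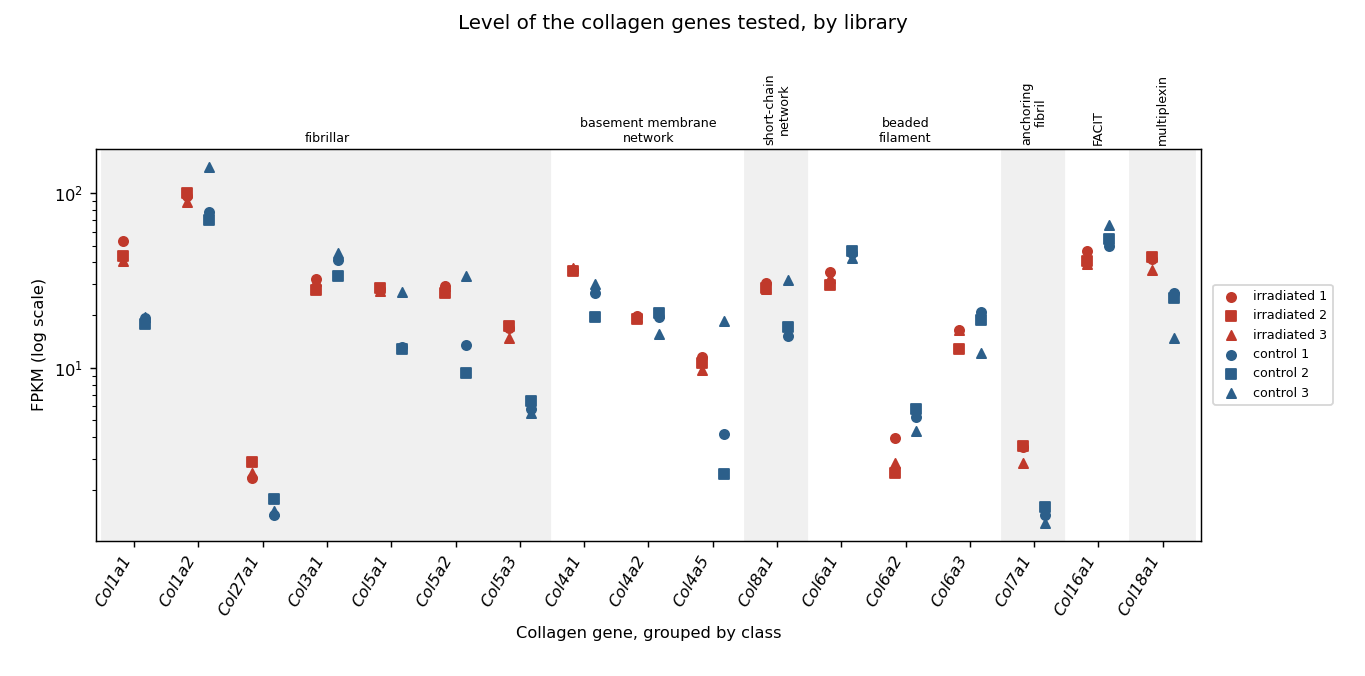
Level in FPKM (log axis) of the 17 collagen genes tested, by class, with irradiated libraries in red left of controls in blue and 1 marker shape per replicate number. Col1a1, Col5a3 and Col7a1 have every red point above every blue point, and control 3 stands beside the irradiated libraries for Col5a1, Col5a2 and Col8a1.

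Type I collagen, the most abundant fibrillar collagen of the body, is built from the products of Col1a1 and Col1a2. Col1a1 (NCBI gene 12842, chromosome 11, 94936224 to 94953042, 51 exons) measured 53.2, 43.7 and 40.6 FPKM in irradiated libraries 1 to 3, against 19.3, 17.9 and 19.4 FPKM in controls 1 to 3. The controls lay close together and all irradiated libraries were above them. Its log2 fold change was 1.23 (SE 0.14, limma adjusted p = 0.00474), and the 16 alternatives tried gave 0.98 to 1.31. Among these, the fit with control 3 as the only control holds no spread of controls, so only effect sizes are given for it. The call held in each of the other alternatives (adjusted p = 0.000118 to 0.0411). Col1a2 (chromosome 6) behaved otherwise and measured 96.7, 99.6 and 88.6 FPKM in irradiated libraries, against 77.4, 70.0 and 142 FPKM in controls. The irradiated libraries lay between control 1 and control 3, and the log2 fold change was 0.05 (SE 0.27, adjusted p = 0.9). Without control 3 it was 0.36 and called (adjusted p = 0.0132), and with control 3 as the only control it was -0.57.

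Within each library the ratio of Col1a1 to Col1a2, from which the scale of the library cancels, was 0.551, 0.439 and 0.458 in irradiated libraries 1 to 3, against 0.25, 0.255 and 0.137 in controls 1 to 3. Every irradiated library was above every control, at a mean of 0.483 ± 0.0598 in irradiated cells and 0.214 ± 0.0667 in controls (SD, n = 3 each). The log2 difference was 1.22 (two-sided exact permutation test, p = 0.1, adjusted p = 0.3 over the 6 ratios computed), where 0.1 is the smallest p that 3 libraries against 3 allow. Leaving out each library in turn gave 0.93 to 1.38.

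Type V collagen is a minor fibrillar collagen that sits inside type I fibrils and limits their width, and its chains are encoded by Col5a1, Col5a2 and Col5a3. Col5a3 (NCBI gene 53867, chromosome 9, 20770050 to 20815117, 67 exons) measured 16.8, 17.2 and 14.8 FPKM in irradiated libraries, against 5.81, 6.40 and 5.53 FPKM in controls. Every irradiated library was well above the highest control. Its log2 fold change of 1.32 was the largest among the collagen genes tested (SE 0.13, limma adjusted p = 0.00297). The 16 alternatives gave 1.03 to 1.44, and Col5a3 was called in each that kept more than 1 control (adjusted p at most 0.0321).

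The other type V chains divided the controls. Col5a1 measured 28.3, 28.7 and 27.4 FPKM in irradiated libraries, against 13.1, 12.7 and 27.1 FPKM in controls 1 to 3. Col5a2 measured 29.5, 26.6 and 29.5 FPKM in irradiated libraries, against 13.4, 9.35 and 33.4 FPKM in controls. Controls 1 and 2 were far below the irradiated libraries for both genes, while control 3 was level with them. Neither was called (log2 fold changes 0.73 and 0.77, limma adjusted p = 0.112 and 0.205). Both were called without control 3 (1.06 and 1.27, adjusted p = 7.27e-05 and 0.000192), and with control 3 as the only control the values were 0.05 and -0.22. The ratio of Col5a3 to Col5a1 was 0.593, 0.6 and 0.539 in irradiated libraries, against 0.443, 0.503 and 0.204 in controls, without overlap (log2 difference 0.69, or 0.29 without control 3; exact permutation p = 0.1, adjusted p = 0.3). Col5a1 to Col5a2 was near 1 in all libraries (0.931 to 1.08 irradiated, 0.81 to 1.36 control).

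Among the remaining fibrillar genes, Col3a1, whose product co-assembles with type I in skin and vessels, measured 32.4, 27.7 and 31.3 FPKM in irradiated libraries, against 41.1, 33.4 and 45.2 FPKM in controls. The groups lay close but did not overlap, and the log2 fold change of -0.37 was not called (adjusted p = 0.122). It was called after trimmed-mean scaling (-0.54, adjusted p = 0.0459) and after a correction for transcript length and GC content (-0.70, adjusted p = 0.017). Against control 3 alone the value was -0.56. Col27a1, a cartilage-associated fibrillar chain, measured 2.33, 2.89 and 2.48 FPKM in irradiated libraries, against 1.44, 1.78 and 1.52 FPKM in controls (log2 fold change 0.47, adjusted p = 0.0615). All irradiated libraries were above all controls. It was called without control 3 (0.45, adjusted p = 0.0114), and the value against control 3 alone was 0.50. The value was 0.0032 after quantile normalization (adjusted p = 0.99) and 0.15 after the length and GC correction (adjusted p = 0.396). Col3a1 and Col5a2 are neighbours on chromosome 1, on opposite strands with 24.6 kb between their 3′ ends, and their log2 fold changes had opposite signs (-0.37 and 0.77).

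Type VII collagen anchors the epidermis. Col7a1 (NCBI gene 12836, chromosome 9, 108953586 to 108984875, 119 exons) measured 3.52, 3.57 and 2.86 FPKM in irradiated libraries, against 1.44, 1.59 and 1.29 FPKM in controls. Its level was low, and the lowest irradiated library was above the highest control. The log2 fold change was 0.82 (SE 0.14, limma adjusted p = 0.018). The call was lost without control 1 (adjusted p = 0.0906) or irradiated library 1, 2 or 3 (0.116, 0.119 and 0.0599), after quantile normalization (0.36, adjusted p = 0.154) and after the length and GC correction (0.48, adjusted p = 0.0611). Its values ranged from 0.36 to 1.15 over 15 alternatives (adjusted p = 0.00072 to 0.154).

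**Figure D2:**
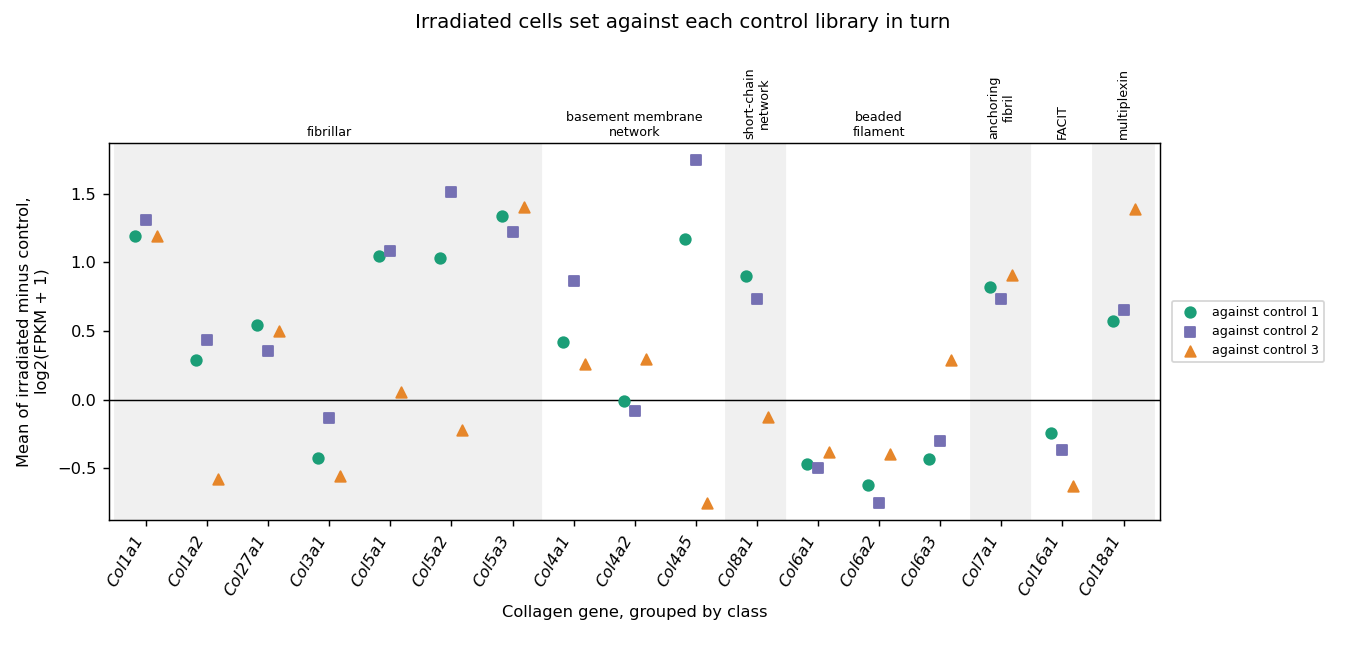
Mean of the 3 irradiated libraries minus each control in turn, on the log2(FPKM + 1) scale, for the 17 collagen genes tested, by class. Col1a1, Col5a3 and Col7a1 have all 3 points close together above 0, while Col4a5 spans from -0.75 against control 3 to 1.74 against control 2.

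The deposited table has one column for each control, and the 3 columns did not give the same picture. Every irradiated library was above the control for 11, 11 and 9 of the 17 genes when set against control 1, 2 and 3, and below it for 5, 6 and 8. Over all genes tested the shares above were 55.6%, 59.3% and 48.0%, and the shares below were 33.7%, 32.5% and 32.3%. Of the 17, limma called 15 without control 3 (69.1% of all genes tested) and 12 with control 3 as the only control (36.6%). After trimmed-mean scaling it called 6 (10.4% of all). The median difference of the 17 genes was 0.54, 0.65 and 0.05 against control 1, 2 and 3, and that of all genes tested 0.18, 0.29 and 0.07. Across 10807 tested genes with a known transcript, the log2 fold change had a Spearman correlation of 0.407 with transcript length and -0.232 with GC content. The difference of control 3 from controls 1 and 2 had correlations of 0.435 and -0.348 with them. The 17 collagen transcripts had a median length of 6119 bases and 57.7% GC, against 3376 bases and 49.6% for all. After correction for both, where 15.1% of all genes were called, 2 of the 17 were called higher (Col1a1 and Col5a3) and 4 lower (Col3a1, Col6a1, Col6a2 and Col16a1), and the median of the 17 was 0.15, against -0.03 for all genes. The corrected log2 fold changes of Col5a1, Col5a2, Col4a1, Col4a5 and Col8a1 were 0.38, 0.35, 0.22, 0.33 and 0.13, none of them called. The part of length and GC content in the uncorrected values was not tested further.

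Basement membrane collagen is a network of type IV chains, of which Col4a1 and Col4a2 encode the form present in nearly all basement membranes. Col4a1 measured 36.0, 35.6 and 37.3 FPKM in irradiated libraries, against 26.8, 19.5 and 30.2 FPKM in controls, without overlap between the groups (log2 fold change 0.51, adjusted p = 0.0868). Col4a2 measured 19.7, 19.1 and 19.6 FPKM in irradiated libraries, inside the controls at 19.6, 20.7 and 15.6 FPKM (log2 fold change 0.07, adjusted p = 0.73). The genes lie head to head on chromosome 8 and overlap by 85 bases at their 5′ ends in the RefSeq annotation. The strand setting of the counting is not given, so reads from the overlap could be assigned to either. The ratio of Col4a1 to Col4a2 was 1.83, 1.87 and 1.91 in irradiated libraries, against 1.37, 0.945 and 1.93 in controls. Control 3 was at the irradiated ratio and controls 1 and 2 below it (log2 difference 0.46, exact permutation p = 0.4, adjusted p = 0.48).

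Col4a5, an X-linked chain found in the basement membranes of kidney and skin, measured 11.5, 10.7 and 9.72 FPKM in irradiated libraries, against 4.16, 2.47 and 18.5 FPKM in controls. Control 3 was the highest of all 6 libraries and control 2 the lowest. The log2 fold change of 0.72 was not called (adjusted p = 0.383). It was 1.46 without control 3 (adjusted p = 0.000188) and -0.75 with control 3 as the only control. Col4a1 was called without control 3 (0.64, adjusted p = 0.00329). Against control 3 alone the values were 0.26 for Col4a1 and 0.30 for Col4a2. Col4a3, Col4a4 and Col4a6 were at 0.07 FPKM or less in all libraries. By limma 0 of the 3 type IV genes tested were called, with 1 at an unadjusted p below 0.05, against 12.0% and 38.3% of all genes tested.

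Col8a1, a short chain whose product forms hexagonal networks around vessels and in the cornea, measured 30.6, 28.7 and 28.1 FPKM in irradiated libraries, against 15.1, 17.1 and 31.8 FPKM in controls. Control 3 was again the highest library and controls 1 and 2 were below all others (log2 fold change 0.51, adjusted p = 0.201). Without control 3 the value was 0.82 (adjusted p = 0.000272), and against control 3 alone -0.12.

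Type VI collagen, assembled from the products of Col6a1, Col6a2 and Col6a3 in most tissues, had lower mean levels in irradiated cells. Col6a1 measured 35.5, 29.6 and 32.7 FPKM in irradiated libraries, against 45.3, 46.4 and 42.7 FPKM in controls. Col6a2 measured 3.94, 2.49 and 2.86 FPKM in irradiated libraries, against 5.22, 5.82 and 4.32 FPKM in controls. Both genes had every irradiated library below every control, including control 3, as had 13.7% of all genes tested. Both missed the threshold (log2 fold changes -0.45 and -0.59, limma adjusted p = 0.0553 and 0.0737). Col6a1 was called after trimmed-mean scaling, without control 3 and after the length and GC correction (-0.62, -0.48 and -0.61, adjusted p = 0.0414, 0.00398 and 0.0228). Against control 3 alone its value was -0.38. Col6a2 was called after quantile normalization, without control 3 and after the length and GC correction (-0.999, -0.68 and -0.83, adjusted p = 0.0429, 0.00491 and 0.0365).

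Col6a3 measured 16.5, 12.7 and 16.5 FPKM in irradiated libraries, against 20.7, 18.9 and 12.2 FPKM in controls, with control 3 the lowest of all. Its log2 fold change was -0.15 (limma adjusted p = 0.637), and -0.36 without control 3 (adjusted p = 0.0403). Against control 3 alone it was 0.29. Of the 3 type VI genes tested, 0 were called by limma and 2 had an unadjusted p below 0.05, against 12.0% and 38.3% of all genes tested. Col6a1 exceeded Col6a2 in FPKM by a ratio of 9.00, 11.9 and 11.4 in irradiated libraries and 8.68, 7.97 and 9.88 in controls, and the groups overlapped. Col6a1 and Col6a2 lie on the same strand of chromosome 10, 85.2 kb apart.

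Col16a1 encodes a chain of the FACIT class, collagens with interrupted triple helices that attach to fibrils. It measured 46.6, 40.6 and 39.4 FPKM in irradiated libraries, against 49.98, 54.6 and 65.6 FPKM in controls. Irradiated libraries were lower without overlap, and the log2 fold change of -0.41 was not called (adjusted p = 0.0954). It was called after trimmed-mean scaling (-0.58, adjusted p = 0.0464), without control 3 (-0.31, adjusted p = 0.0357) and after the length and GC correction (-0.61, adjusted p = 0.0241). Against control 3 alone the value was -0.63.

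Col18a1, of the multiplexin class, encodes the basement membrane collagen whose C-terminal fragment is endostatin, an inhibitor of vessel growth. It measured 42.0, 42.8 and 36.1 FPKM in irradiated libraries, against 26.7, 25.2 and 14.7 FPKM in controls. All irradiated libraries were above all controls, with control 3 lowest, and the value narrowly missed the threshold (log2 fold change 0.87, SE 0.23, adjusted p = 0.0546). Col18a1 was called with a variance weight for each group (adjusted p = 0.0362) and without control 3 (0.61, adjusted p = 0.00139). Against control 3 alone its log2 fold change was 1.39. Over its 16 alternatives the adjusted p was at most 0.197.

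**Figure D3:**
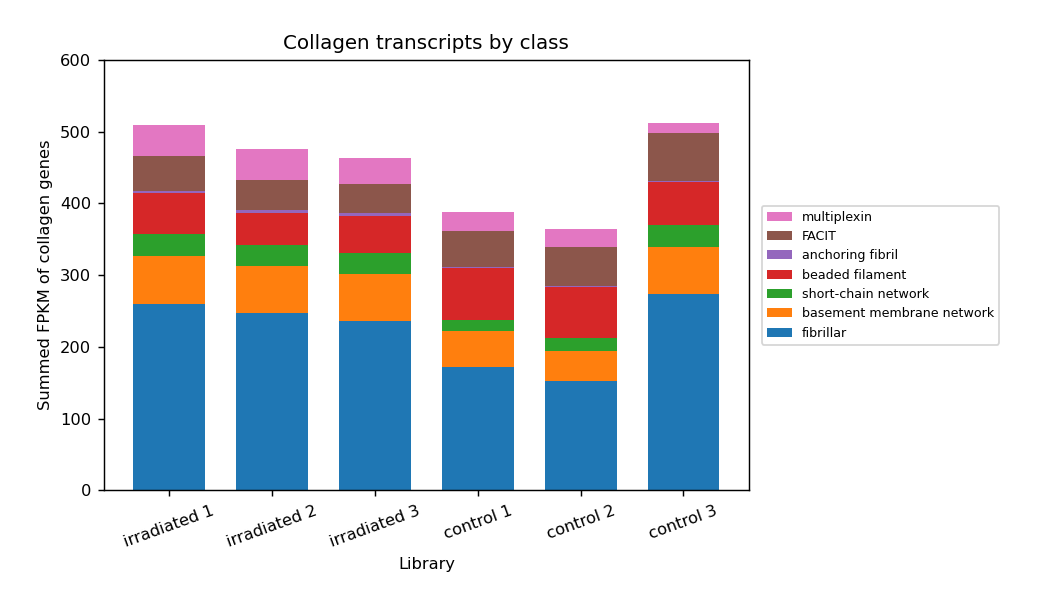
Summed FPKM of the collagen genes in each library, stacked by class, with irradiated libraries left of controls; the transmembrane class and the 2 genes outside these classes, at 0.28 FPKM or less, are not drawn. Control 3 resembles the irradiated libraries in its total but has the smallest multiplexin segment.

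The summed level of all 39 genes was 509, 476 and 463 FPKM in irradiated libraries, against 388, 365 and 512 FPKM in controls 1 to 3. Control 3 had the highest total and controls 1 and 2 the lowest. Fibrillar genes made up 51.1%, 52.0% and 50.8% of the collagen total in irradiated libraries and 44.4%, 41.6% and 53.5% in controls. Type VI genes made up 11.1%, 9.54% and 11.3% in irradiated libraries and 18.4%, 19.5% and 11.6% in controls. The multiplexin share, nearly all Col18a1, was 8.26%, 8.99% and 7.80% in irradiated libraries and 6.88%, 6.90% and 2.87% in controls. FACIT genes took 8.87% to 9.58% in irradiated libraries and 13.0% to 15.1% in controls. The groups did not overlap in the type VI and FACIT shares, which were lower in irradiated libraries, nor in the multiplexin, basement membrane and anchoring fibril shares, which were higher. They overlapped in the fibrillar, short-chain and transmembrane shares. The 2 genes outside the classes summed to 0.08, 0.03 and 0.02 FPKM in irradiated libraries and 0, 0 and 0.02 FPKM in controls, too low to compare.

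**Figure D4:**
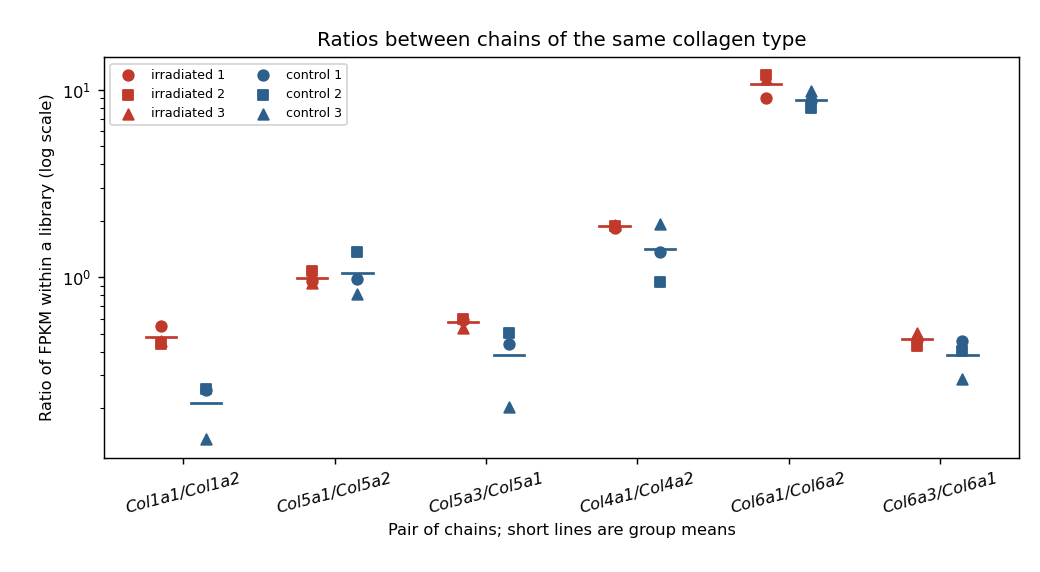
Ratio of FPKM between chains of the same collagen type within each library (log axis), with irradiated libraries in red left of controls in blue and short lines at the group means. The groups are apart for Col1a1/Col1a2 and Col5a3/Col5a1 and overlap for the other 4 ratios.

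The 22 genes below the filter reached at most 0.82 FPKM, and 13 of them stayed below 0.1 FPKM in all 6 libraries. The cartilage chains Col9a1 and Col9a2 were at 0.03 FPKM or less, and Col10a1, the chain of hypertrophic cartilage, reached 0.18 FPKM in irradiated library 3. In 6 of the 22 (Col12a1, Col6a4, Col9a3, Col2a1, Col11a2 and Col17a1) every irradiated library was above every control, and in 0 was every one below. Of all 5927 genes below the filter, 19.2% had every irradiated library above every control and 2.35% every one below. Col12a1, a FACIT chain of dense connective tissue, measured 0.82, 0.80 and 0.74 FPKM in irradiated libraries, against 0.06, 0.06 and 0.24 FPKM in controls. Col6a4, an additional type VI chain, measured 0.45, 0.55 and 0.45 FPKM in irradiated libraries, against 0.10, 0.08 and 0.10 FPKM in controls. Both were several-fold higher in irradiated cells at levels under 1 FPKM.

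Col2a1, the main fibrillar chain of cartilage, measured 0.31, 0.48 and 0.33 FPKM in irradiated libraries, against 0.15, 0.16 and 0.14 FPKM in controls. Col11a2 measured 0.45, 0.52 and 0.41 FPKM in irradiated libraries, against 0.19, 0.21 and 0.19 FPKM in controls. Col9a3 measured 0.52, 0.36 and 0.35 FPKM in irradiated libraries, against 0.05 and 0.13 FPKM in controls 1 and 2, and was listed at 0 in control 3. These 3 chains belong to the cartilage collagens, and for each the groups were apart. In the RefSeq annotation Col9a3 overlaps Tcfl5, and Col10a1 overlaps Nt5dc1, so reads from these overlaps could be assigned to either gene. Without any filter limma called 1338 of 17015 genes (7.86%), and among the 22 it called Col12a1, Col6a4, Col11a2, Col9a3 and Col2a1 higher (adjusted p = 0.01, 0.00612, 0.0232, 0.026 and 0.0481). The 7.86% is a share of all genes, not of those below the filter alone. Col17a1, the transmembrane collagen of hemidesmosomes, measured 0.16, 0.16 and 0.28 FPKM in irradiated libraries, against 0.12, 0.11 and 0.02 FPKM in controls, and was not called (adjusted p = 0.142). Col11a1, Col6a6, Col13a1, Col19a1, Col21a1 and Col25a1 had no row in the table under these symbols and were not analysed.

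Procollagen chains are hydroxylated and glycosylated, folded by chaperones, exported, trimmed of their propeptides and cross-linked outside the cell. Of 57 genes listed for these steps and for collagen binding, 40 were tested, with 2 called higher and 2 lower, or 10.0% against 12.0% of all genes tested. Their median log2 fold change was 0.15.

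Among 17 tested genes of chain modification and folding, 2 were called, both lower. Of all genes tested 12.0% were called in either direction, with 2.77% called lower. An unadjusted limma p below 0.05 was reached by 8 of the 17, against 38.3% of all. Of these 8, Plod2 and P4ha2 had every irradiated library above every control, and the others were lower. The log2 fold changes of Plod2 and P4ha2 were 0.96 and 0.52 (limma adjusted p = 0.0827 and 0.0781). P3h4, which encodes a partner of the lysyl and prolyl hydroxylases, measured 14.6, 13.3 and 13.4 FPKM in irradiated libraries, against 32.6, 31.3 and 22.4 FPKM in controls (log2 fold change -0.998, SE 0.17, limma adjusted p = 0.0202). Fkbp10, a collagen chaperone and prolyl isomerase, measured 29.98, 23.6 and 27.8 FPKM in irradiated libraries, against 55.8, 69.5 and 40.8 FPKM in controls (-0.98, SE 0.21, adjusted p = 0.0371). Both genes had all irradiated libraries below all controls. Leaving out control 1 ended both calls (limma adjusted p = 0.102 for P3h4 and 0.151 for Fkbp10), as did leaving out irradiated library 1 (0.0996 and 0.135), 2 (0.118 and 0.166) or 3 (0.104 and 0.139), and that of Fkbp10 also without control 2 (0.0665) and with no filter (0.05). With control 3 as the only control the log2 fold changes were -0.67 and -0.58.

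The 3 most abundant genes of this list were not called. Ppib, which encodes the prolyl isomerase cyclophilin B, averaged 458 ± 10.6 FPKM in irradiated cells and 758 ± 190 FPKM in controls (adjusted p = 0.0703). P4hb, the beta subunit of prolyl hydroxylase, averaged 335 ± 13.9 FPKM in irradiated cells and 440 ± 33.6 FPKM in controls (adjusted p = 0.088). Serpinh1, the collagen chaperone HSP47, averaged 302 ± 17.7 FPKM in irradiated cells and 277 ± 65.9 FPKM in controls (SD, n = 3 each; adjusted p = 0.576). The first 2 had irradiated libraries below all controls and the Serpinh1 groups overlapped.

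Of 10 secretion and propeptide genes tested, limma called 0, with 3 at an unadjusted p below 0.05. Of all genes tested 12.0% were called and 38.3% had such a p. Pcolce, an enhancer of C-propeptide cleavage, averaged 384 ± 24.01 FPKM in irradiated cells and 497 ± 54.7 FPKM in controls (log2 fold change -0.37, adjusted p = 0.118). Pcolce2 and the coat protein gene Sec13 averaged 79.4 FPKM each in irradiated cells and 101.3 and 83.0 FPKM in controls. Of 3 cross-linking genes tested (Loxl3, Loxl4 and Tgm2), 0 were called and 0 had an unadjusted p below 0.05. Loxl3, a lysyl oxidase family member, measured 15.1, 13.6 and 13.9 FPKM in irradiated libraries, against 21.8, 23.8 and 14.6 FPKM in controls. Loxl4, of the same family, measured 13.9, 13.7 and 13.8 FPKM in irradiated libraries, against 7.45, 5.34 and 14.7 FPKM in controls. Tgm2, a transglutaminase, measured 26.9, 32.1 and 26.7 FPKM in irradiated libraries, against 22.7, 20.8 and 48.3 FPKM in controls. The groups overlapped for all 3 genes, with log2 fold changes of -0.44, 0.64 and 0.0036 for Loxl3, Loxl4 and Tgm2 (limma adjusted p = 0.144, 0.178 and 0.994). Lox itself, the founding lysyl oxidase, was at 0.03 FPKM in each irradiated library and listed at 0 in each control.

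**Figure D5:**
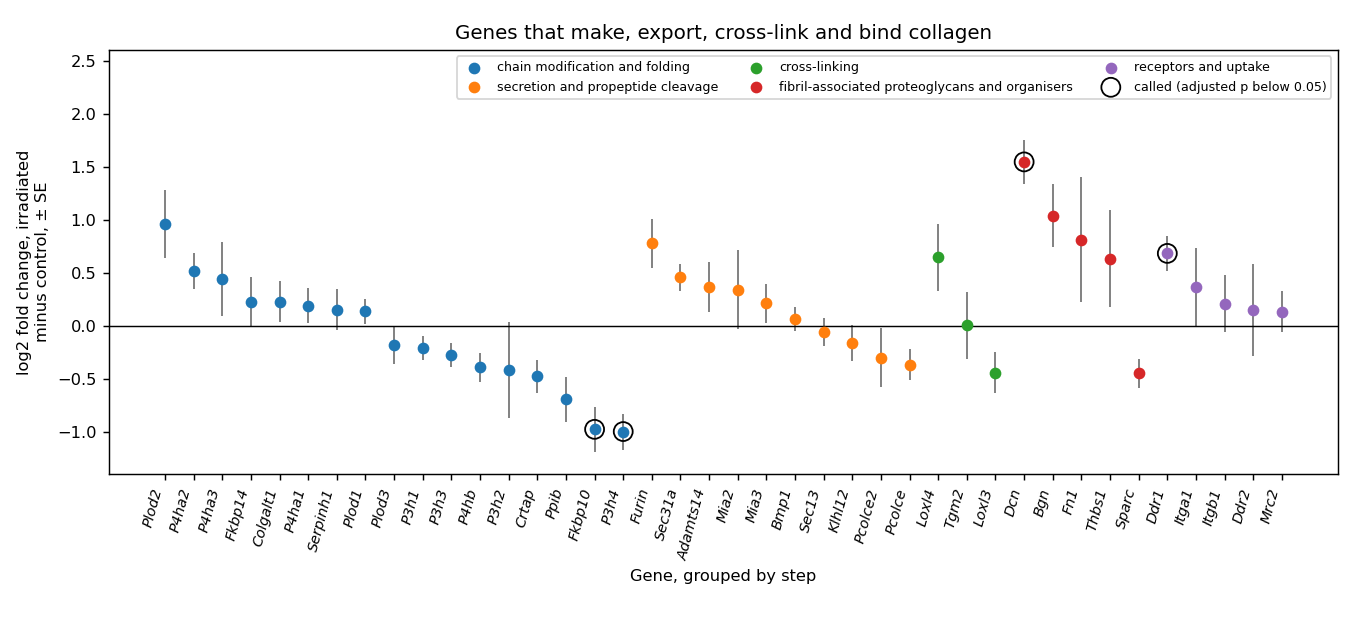
Log2 fold change (irradiated minus control, bars ± SE from limma) of the 40 tested genes that make, export, cross-link or bind collagen, by step, with rings around the 4 called genes. Dcn at 1.54 and Ddr1 at 0.68 are called above 0, and Fkbp10 at -0.98 and P3h4 at -0.998 below it.

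Of 5 tested genes for proteoglycans and organisers of fibrils, 1 was called higher, as were 9.24% of all genes tested. Dcn, which encodes decorin, a small proteoglycan that binds fibrils, measured 7.26, 4.12 and 4.58 FPKM in irradiated libraries, against 0.94, 1.15 and 1.28 FPKM in controls (log2 fold change 1.54, SE 0.21, limma adjusted p = 0.0086). Every irradiated library was above the highest control. Without control 1 the call was lost (1.48, adjusted p = 0.0654). Bgn, the related proteoglycan biglycan, measured 45.9, 36.2 and 44.4 FPKM in irradiated libraries, against 14.9, 16.0 and 32.8 FPKM in controls (1.04, adjusted p = 0.0627). Sparc, a collagen-binding matrix glycoprotein, measured 225, 219 and 224 FPKM in irradiated libraries, against 288, 341 and 285 FPKM in controls (-0.45, adjusted p = 0.0686). Fn1, fibronectin, measured 467, 396 and 413 FPKM in irradiated libraries, against 147, 141 and 681 FPKM in controls (0.81, adjusted p = 0.328), with control 3 the highest library as for Col4a5 and Col8a1.

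Of 5 tested collagen receptors and uptake genes, 1 was called higher, as were 9.24% of all genes tested. Ddr1, a receptor tyrosine kinase activated by collagen, measured 19.5, 21.4 and 20.3 FPKM in irradiated libraries, against 12.6, 10.0 and 14.9 FPKM in controls (log2 fold change 0.68, SE 0.16, limma adjusted p = 0.0444). The groups did not overlap. The call was lost without control 1 or 2 (adjusted p = 0.157 and 0.0728), without irradiated library 1, 2 or 3 (0.174, 0.186 and 0.156) and after trimmed-mean scaling (0.52, adjusted p = 0.0537). It was also lost with no filter, with the filter at 5 FPKM and after the length and GC correction (adjusted p = 0.0563, 0.0518 and 0.0512). Ddr2, a second such receptor, measured 26.3, 26.1 and 27.5 FPKM in irradiated libraries, against 16.8, 15.3 and 52.3 FPKM in controls (0.15, adjusted p = 0.812). Itgb1, the beta subunit of collagen-binding integrins, averaged 172 ± 13.8 FPKM in irradiated cells and 155 ± 58.6 FPKM in controls, and the endocytic receptor gene Mrc2 32.9 and 30.6 FPKM (SD, n = 3 each); neither was called.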

How the data were processed

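RNA of 6 SCC7 samples (3 irradiated, 3 control) was sequenced after DNase treatment and removal of ribosomal RNA, per the labels' protocols. The authors deposited FPKM rounded to 2 decimals for 17030 genes, per the file headers. HISAT and the build GRCm38.p6 are named in the submitters' processing notes. For the counting tool, strand setting and filters, nothing is given in the sources used here. A search for whole-fragment steps in low values found at best 27.0% to 62.5% of values within 0.1 of a whole number, where 20% would be met without steps, so depth is treated as unknown and no interval based on depth appears.

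The test was limma (version 3.58.1, R version 4.3.3) between 2 groups, with log2(FPKM + 1) as input, the trend and robust settings of eBayes, and Benjamini-Hochberg adjustment over the 11103 genes that reached 1 FPKM in 3 or more libraries. Calls are at an adjusted p below 0.05. The fit assumes 1 variance for both groups. No count model was used. Simulated data with known changes gave 44% recovery at 2-fold and 87% at 4-fold, with 6 unchanged genes called of 11103 tested. The simulation gave both groups 1 spread, drew genes independently and changed only genes with a mean log2(FPKM + 1) above 2. Its rates therefore do not carry over to these libraries, where controls spread more and control 3 stands apart for many genes. Ratios between chains were compared by exact permutation of log2 ratios.

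Samples with the same number did not deviate together (correlations -0.115, 0.0203 and -0.159), so they were not treated as pairs. RefSeq (GRCm38.p6) gave coordinates for all 39 genes and promoter windows for 30. Transcript length and GC content came from the longest GENCODE M21 transcript. All collagen genes past the filter are named with their values, and for the pathway lists the called genes and the 3 with the highest mean FPKM. The exceptions, named after their values were seen, are Lox, Plod2, P4ha2, 12 collagen genes below the filter and the marker genes. The members and lists were chosen with earlier results of these data known.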

Additional observations from a re-analysis of the deposited data

How the results depend on the processing

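Which collagen genes were called depended most on control 3. The count of collagen genes called was 3 (all higher), and 2 to 15 when each library was left out in turn, the 15 without control 3, where 69.1% of all genes tested were called. It was 6 after trimmed-mean scaling (3 higher, 3 lower), 8 without any filter, 12 with control 3 as the only control (7 higher, 5 lower) and 6 after the length and GC correction, which was added after seeing the data. With a replicate block on the sample number, which does not pair these samples, the collagen count was 2, and 300 of all 11103 genes tested were called. The pathway count of 4 was 7 after quantile normalization, 2 with the filter at 5 FPKM, 8 with a variance weight for each group, 1 with the replicate block, 22 with control 3 as the only control and 0 to 32 with a library left out; at an unadjusted p below 0.05 the setting with 0 had 9. The count for all genes of 1334 was 727, 300 and 4061 with the filter at 5 FPKM, the replicate block and control 3 as the only control, and 181 to 7669 with a library left out (7669 without control 3). The block ended the calls of Col7a1 (adjusted p = 0.0702), Ddr1, Fkbp10 and P3h4, and no sample number is given meaning by the labels.

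Directions changed for uncalled genes. With control 3 as the only control the log2 fold change was -0.57 for Col1a2, -0.75 for Col4a5, -0.22 for Col5a2, 0.29 for Col6a3 and -0.12 for Col8a1, and the log2 ratio difference was 0.29 for Col5a1/Col5a2 and -0.050 for Col4a1/Col4a2. Trimmed-mean scaling gave -0.12 for Col1a2 and -0.10 for Col4a2, the length and GC correction -0.21 and -0.19, and quantile normalization -0.082 for Col4a2. With a library left out, Col1a2 ranged from -0.14 to 0.36, Col4a2 from -0.046 to 0.14 and Col5a1/Col5a2 from -0.22 to 0.15. Scaling moved the median of all genes from 0.17 to 0.02 (trimmed mean) and -0.02 (quantile). Higher calls were 76.9% of all calls, and 61.1% and 51.8% after these scalings. The cause was not tested. Low levels under 1 FPKM, and 3 libraries a group, limit what could be called.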
